A study of Mus musculus with 12 samples.

Results

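The endothelial junction and surface genes described here are Pecam1, Cdh5, Esam, Cldn5, Emcn, Plvap, Adgrl4, Robo4, Eng and Egfl7. They were chosen by name, and each is read from the probe set that the array's annotation assigns to that symbol alone, 1 probe set per gene, so 10 of the 19937 named genes on the array. Expression was measured in endothelial cells, the lining of blood vessels, and in osteoblasts, the cells that build bone, sorted from long bones of female NOD SCID mice, which lack functional lymphocytes. The 4 groups, with 3 biological replicates each, were endothelial cells of tumor-bearing mice, endothelial cells of tumor-free mice, osteoblasts of tumor-bearing mice and osteoblasts of tumor-free mice. Tumor-bearing animals had been given 200000 MDA-MB-231 scp1833 cells, a bone-seeking derivative of a human breast cancer line, by the intracardiac route and were kept for about 2 weeks while tumors grew in the bones; tumor-free animals had no such cells. Neither mouse age nor the number of mice behind each array is given in the sources used here. All sorted cells were negative for GFP, TR119 and CD45; the endothelial gate took SCA1-positive, CD31-positive cells and the osteoblast gate SCA1-negative, CD31-negative, CD51-positive cells.

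Endothelial cells are held together by adherens junctions, built on the cadherin encoded by Cdh5, and by tight junctions, in which the claudin encoded by Cldn5 seals the space between neighbouring cells. Pecam1 encodes CD31, an adhesion molecule concentrated at the borders between endothelial cells, and was therefore part of the sort. In bone marrow the vessels are mostly wide, leaky sinusoids, and endomucin, the product of Emcn, is a widely used surface marker of them and of the capillaries near growing bone.

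Values are log2 expression per probe set as the authors deposited them, so 1 unit is a 2-fold difference. The middle probe set of an array stood between 5.21 and 5.41. Endothelial markers that are not among the 10 genes (Kdr, Tek, Tie1, Flt1 and Erg) averaged 9.77 to 9.82 on tumor-bearing and 10.00 to 10.10 on tumor-free endothelial arrays, against 5.00 to 5.35 and 5.24 to 5.67 on the osteoblast arrays of tumor-bearing and tumor-free mice. The 6 osteoblast markers measured averaged 5.96 to 6.10 and 5.50 to 5.79 on those endothelial arrays, against 9.46 to 9.69 and 8.86 to 10.07 on the osteoblast arrays. Osteoblast libraries differed in blood cell transcripts: the mean of 5 hematopoietic markers ranged from 4.56 to 6.02 in tumor-bearing and from 4.81 to 7.43 in tumor-free mice, with replicates 2 and 3 of tumor-free osteoblasts highest, at 7.43 and 6.81. On endothelial arrays the same mean stayed between 4.48 and 4.94 in tumor-bearing and between 4.36 and 4.67 in tumor-free mice. The 6 pericyte and smooth muscle markers averaged 7.98 to 8.25 and 7.75 to 8.15 on tumor-bearing and tumor-free endothelial arrays, against 7.22 to 8.16 and 6.71 to 7.46 on the osteoblast arrays, and among them Abcc9 was 9.05-fold and 9.98-fold higher and Kcnj8 5.54-fold and 2.71-fold higher in endothelial cells of tumor-bearing and tumor-free mice, while Cspg4 was lower in both. The 4 lymphatic markers averaged 6.34 to 6.63 and 6.34 to 6.80 on tumor-bearing and tumor-free endothelial arrays, against 5.39 to 5.77 and 5.25 to 5.48 on the osteoblast arrays. They did not move together. Flt4 was 15.8-fold and 13.9-fold higher in endothelial cells and Pdpn 3.09-fold and 1.61-fold lower, while Prox1 and Lyve1 did not pass in either comparison. The part of pericytes and lymphatic cells in the values of the 10 genes was not tested. The share of cells of another type and the amount of RNA per cell cannot be told apart in such bulk samples.

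All 10 genes were higher in endothelial cells than in osteoblasts, in tumor-bearing and in tumor-free mice alike. For each of them the 3 endothelial arrays lay above the 3 osteoblast arrays within each comparison, as 19.5% and 23.1% of all genes tested did. The 10 also kept all 6 endothelial arrays above all 6 osteoblast arrays, a pattern whose share over all genes was not counted. By limma, adjusted over 12430 genes, 10 of 10 passed the 0.05 threshold in each comparison, where 8.13% of all genes tested were called higher in tumor-bearing mice and 18.2% in tumor-free mice. Their median log2 difference was 3.88 in tumor-bearing and 3.80 in tumor-free mice, against 0.00 and 0.03 over all genes tested. After median centering the genes called in tumor-free mice split into 2852 higher and 785 lower, against 2266 and 1584 as deposited, and with no filter on dim genes into 2422 and 4142. The 10 kept their calls under both. A gene was tested if it exceeded the array median on at least 3 arrays, and all 10 did so on all 6 endothelial arrays. Osteoblast arrays above the median numbered 0 of 6 for Adgrl4, 2 for Emcn and Esam, 3 for Pecam1, 4 for Cdh5 and Eng, 5 for Cldn5 and 6 for Robo4, Egfl7 and Plvap. Adgrl4, Emcn and Esam, with fewer than 3 such arrays, thus reached the test only through their endothelial level and had to differ. Pecam1 encodes the CD31 of the sort, so its difference was set by the gate. The counts and medians over the 10, and the p-values and ranks of these genes, are therefore a description.

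**Figure D1:**
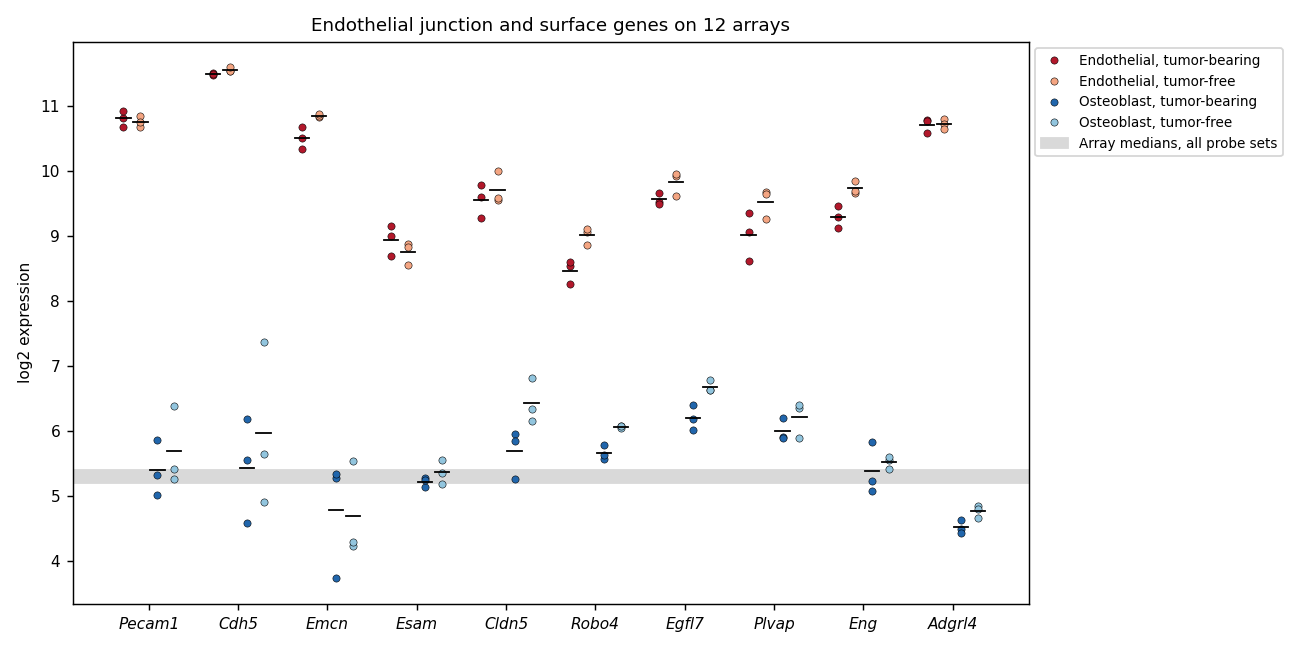
Log2 expression of the 10 genes on each of the 12 arrays (points, 3 per group), with group means as black bars and the range of array medians (5.21 to 5.41) as a grey band. In each gene the 6 endothelial arrays sit above the 6 osteoblast arrays, with the smallest gap for Robo4 (2.18) and the largest for Adgrl4 (5.73).

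Among the junction molecules, Cdh5, the adherens junction cadherin, stood at 11.51, 11.48 and 11.49 in tumor-bearing endothelial cells, against 6.18, 5.56 and 4.59 in the osteoblasts of those mice. In tumor-free mice it stood at 11.54, 11.54 and 11.60 in endothelial cells, against 5.65, 7.38 and 4.91 in osteoblasts. The 6 endothelial arrays therefore spanned 0.113 log2 units and the 6 osteoblast arrays 2.79, with tumor-free osteoblast replicate 2 highest and tumor-bearing osteoblast replicate 3 lowest. The endothelial excess was 66.4-fold in tumor-bearing mice (log2 difference 6.05 ± 0.54 SE, adjusted p = 2.25e-05 by limma) and 47.8-fold in tumor-free mice, or 77.6-fold without tumor-free osteoblast replicate 2. Pecam1, the sort marker, stood at 10.82, 10.68 and 10.92 in tumor-bearing endothelial cells, against 5.87, 5.33 and 5.03 in the osteoblasts of those mice. Its tumor-free values were 10.84, 10.68 and 10.76 in endothelial cells, against 5.42, 6.39 and 5.27 in osteoblasts. The 42.2-fold difference in tumor-bearing mice (adjusted p = 5.54e-07 by limma) was set by the CD31 gate itself and is given as a check of the labels.

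Cldn5, the tight junction claudin, stood at 9.28, 9.60 and 9.79 in tumor-bearing endothelial cells, against 5.27, 5.97 and 5.85 in tumor-bearing osteoblasts. In tumor-free mice the values were 9.56, 10.01 and 9.58 in endothelial cells, against 6.15, 6.82 and 6.34 in osteoblasts. Its endothelial excess was 14.5-fold in tumor-bearing mice (3.86 ± 0.24 SE, adjusted p = 1.93e-06 by limma) and 9.68-fold in tumor-free mice (adjusted p = 6.67e-06 by limma). Esam, an adhesion molecule of the immunoglobulin family found at endothelial tight junctions and on platelets, stood at 9.00, 8.69 and 9.15 in tumor-bearing endothelial cells, against 5.28, 5.14 and 5.26 in their osteoblasts. Its tumor-free values were 8.56, 8.88 and 8.83 in endothelial cells, against 5.35, 5.20 and 5.55 in osteoblasts. That was a 13.2-fold difference in tumor-bearing mice (adjusted p = 1.87e-07 by limma) and a 10.5-fold difference in tumor-free mice (adjusted p = 2.97e-07 by limma). Esam had a narrow range on the osteoblast arrays, 0.415 log2 units, unlike Cdh5. Platelets also make Pecam1 and Esam. The mean of 5 megakaryocyte and platelet markers was 5.78 to 7.00 and 5.82 to 6.65 on tumor-bearing and tumor-free endothelial arrays, against 6.07 to 7.97 and 5.99 to 6.71 on tumor-bearing and tumor-free osteoblast arrays. Tumor-bearing osteoblast replicate 3 had the highest platelet mean, 7.97, with Pecam1 at 5.03 and Esam at 5.26, and the part of platelets in these values was not tested.

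Adgrl4, an adhesion G protein-coupled receptor of the vascular endothelium, ranked 1st of the 12430 genes by its excess in tumor-bearing mice and 4th in tumor-free mice. It stood at 10.78, 10.58 and 10.77 in tumor-bearing endothelial cells, against 4.50, 4.64 and 4.43 in tumor-bearing osteoblasts. In tumor-free mice it stood at 10.80, 10.72 and 10.64 in endothelial cells, against 4.85, 4.80 and 4.67 in osteoblasts. All 6 osteoblast values were below the median of their own array, a level for which no measure of background was used, so its folds are ratios of deposited values. The difference was 72.7-fold in tumor-bearing mice (6.18 ± 0.13 SE, adjusted p = 6.35e-10 by limma) and 61.8-fold in tumor-free mice (adjusted p = 9.68e-10 by limma). These p-values and ranks, like the p-values of Emcn and Esam, are a description, since the filter admitted the genes by their endothelial level. Emcn, the sialomucin endomucin, stood at 10.51, 10.34 and 10.67 in tumor-bearing endothelial cells, against 5.29, 5.34 and 3.74 in the osteoblasts. Its tumor-free values were 10.83, 10.85 and 10.88 in endothelial cells, against 4.24, 5.55 and 4.30 in osteoblasts. The excess was 52.6-fold in tumor-bearing mice (adjusted p = 6.32e-06 by limma) and 71.1-fold in tumor-free mice (adjusted p = 3.82e-06 by limma), with osteoblast values that spanned 1.81 log2 units.

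Plvap encodes the protein of the diaphragms that span the pores and caveolae of leaky endothelium. It stood at 9.07, 9.35 and 8.62 in tumor-bearing endothelial cells, against 5.91, 5.89 and 6.20 in tumor-bearing osteoblasts. In tumor-free mice it stood at 9.26, 9.68 and 9.65 in endothelial cells, against 5.90, 6.36 and 6.41 in osteoblasts. It had the widest endothelial range of the 10 genes, 1.06 log2 units, and differed 8.05-fold in tumor-bearing mice (adjusted p = 5.55e-06 by limma) and 9.93-fold in tumor-free mice (adjusted p = 2.81e-06 by limma).

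Of the receptors, Eng encodes endoglin, a co-receptor for bone morphogenetic proteins and TGF-beta. It stood at 9.13, 9.46 and 9.30 in tumor-bearing endothelial cells, against 5.83, 5.09 and 5.24 in tumor-bearing osteoblasts. In tumor-free mice it stood at 9.66, 9.85 and 9.70 in endothelial cells, against 5.56, 5.60 and 5.42 in osteoblasts. The excess was 15.0-fold in tumor-bearing mice (adjusted p = 3.33e-07 by limma) and 18.5-fold in tumor-free mice (adjusted p = 2.44e-07 by limma). Robo4, the endothelial member of the roundabout receptor family, which stabilises vessels, stood at 8.26, 8.55 and 8.60 in tumor-bearing endothelial cells, against 5.58, 5.64 and 5.79 in the osteoblasts of those mice. Its tumor-free values were 8.87, 9.06 and 9.11 in endothelial cells, against 6.08, 6.06 and 6.08 in osteoblasts. Its differences, 6.97-fold in tumor-bearing mice (2.80 ± 0.14 SE, adjusted p = 3.5e-07 by limma) and 7.68-fold in tumor-free mice, were the smallest of the 10 in either comparison. Robo4 and Esam lie near each other on mouse chromosome 9 of GRCm38.p6, at 37401902 to 37414023 and 37528089 to 37538319. The gap between them is 114065 bases and holds Robo3 and Msantd2.

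Egfl7 encodes a secreted protein with EGF-like domains that endothelial cells deposit in their matrix. It stood at 9.67, 9.53 and 9.50 in tumor-bearing endothelial cells, against 6.41, 6.19 and 6.02 in tumor-bearing osteoblasts. Its tumor-free values were 9.62, 9.93 and 9.96 in endothelial cells, against 6.63, 6.64 and 6.79 in osteoblasts. The difference was 10.3-fold in tumor-bearing mice (adjusted p = 1.87e-07 by limma) and 8.87-fold in tumor-free mice (adjusted p = 2.97e-07 by limma). The hairpin of the endothelial microRNA gene Mir126a lies inside Egfl7, at 26591357 to 26591429 on chromosome 2. Its probe set was too dim to be tested. It averaged 2.44 ± 0.10 in tumor-bearing and 2.42 ± 0.10 in tumor-free endothelial cells (SD, n = 3 each). In osteoblasts of tumor-bearing and tumor-free mice it averaged 2.46 ± 0.11 and 2.51 ± 0.14 (SD, n = 3 each). At this level, far below the array medians, it cannot show whether the microRNA follows its host. The mature product, mmu-miR-126a-3p, is shown because it shares its transcript with Egfl7, with the seed (bases 2 to 8) in capitals.
mmu-miR-126a-3p: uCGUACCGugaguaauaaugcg

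Promoter sequences of RefSeq (GRCm38.p6, 250 bases before to 50 after an annotated start) were at hand for 6 of the 10 genes in 8 windows, and 4 are shown because they span the range of the endothelial excess: Adgrl4 and Emcn at the top, Eng between, Robo4 at the bottom. Capitals mark the core of binding sites for ETS factors, a family with several members in endothelium, searched as AGGAAG or CGGAAG on both strands. A site on the opposite strand appears as CTTCCT or CTTCCG. The windows are chr3:151437632-151437931 for Adgrl4, chr3:137340828-137341127 for Emcn, chr2:32646345-32646644 for Eng and chr9:37401722-37402021 for Robo4, all on the plus strand.
Adgrl4: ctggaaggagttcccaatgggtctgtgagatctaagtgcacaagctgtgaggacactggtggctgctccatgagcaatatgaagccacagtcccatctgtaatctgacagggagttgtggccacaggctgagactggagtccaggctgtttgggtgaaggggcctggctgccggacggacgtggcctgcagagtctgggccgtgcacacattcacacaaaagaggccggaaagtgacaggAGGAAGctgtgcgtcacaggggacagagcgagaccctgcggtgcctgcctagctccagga
Emcn: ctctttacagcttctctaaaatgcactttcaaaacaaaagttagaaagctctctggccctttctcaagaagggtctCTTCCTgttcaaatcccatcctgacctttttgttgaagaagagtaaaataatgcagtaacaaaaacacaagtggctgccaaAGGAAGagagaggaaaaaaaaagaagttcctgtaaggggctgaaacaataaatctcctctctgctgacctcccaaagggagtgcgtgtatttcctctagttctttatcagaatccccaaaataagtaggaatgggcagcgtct
Eng: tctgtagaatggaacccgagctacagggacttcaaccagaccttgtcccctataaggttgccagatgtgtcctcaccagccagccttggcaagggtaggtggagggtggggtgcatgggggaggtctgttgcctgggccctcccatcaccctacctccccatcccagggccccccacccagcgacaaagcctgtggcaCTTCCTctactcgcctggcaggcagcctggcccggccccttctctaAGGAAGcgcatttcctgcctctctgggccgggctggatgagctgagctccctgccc
Robo4: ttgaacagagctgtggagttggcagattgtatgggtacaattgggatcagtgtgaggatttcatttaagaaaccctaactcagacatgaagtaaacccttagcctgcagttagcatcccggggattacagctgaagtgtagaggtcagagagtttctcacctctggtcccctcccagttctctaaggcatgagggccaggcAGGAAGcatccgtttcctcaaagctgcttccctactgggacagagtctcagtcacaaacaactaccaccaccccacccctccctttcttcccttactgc
The search found 1 match in the window of Adgrl4, 2 in that of Emcn, 2 in that of Eng and 1 in that of Robo4, while the window of Cldn5 held 0. Counted by gene, 5 of 6 had a match in at least 1 window, and counted by window 6 of 8, against 46.5% of all 32851 promoter windows of that length. The GATA letters AGATAA, searched on both strands, were found in 0 of the 8 windows, against 11.2% of all. A match is a stretch of letters and not a shown binding site.

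The tumor comparison in endothelial cells asked whether the junction and surface genes differed in vessels of bones that carried tumor, and 0 of 10 passed the threshold by limma. The background there was 0.0241% of genes called, 3 of 12430. At an unadjusted p under 0.05 there were 3 of the 10 genes, Robo4, Plvap and Eng, each lower in tumor-bearing mice, where 6.93% of all genes reached that p. The differences were small: 8 of 10 were negative, the median was -0.22 against -0.02 over all genes tested, and they ran from -0.54 for Robo4 to 0.19 for Esam. For 4 genes, Cdh5, Emcn, Robo4 and Eng, every tumor-bearing array lay below every tumor-free array, a pattern that 10.9% of all genes tested had.

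Robo4 averaged 8.47 ± 0.18 in tumor-bearing and 9.01 ± 0.13 in tumor-free endothelial cells (SD, n = 3 each), a log2 difference of -0.54 with a 95% interval of -0.85 to -0.24 (adjusted p = 0.353 by limma). Under the 20 other settings Robo4 stayed lower without passing, with a lowest adjusted p of 0.0865 by limma. Eng averaged 9.29 ± 0.16 in tumor-bearing and 9.74 ± 0.10 in tumor-free endothelial cells (SD, n = 3 each), a difference of -0.44 (interval -0.86 to -0.02, adjusted p = 0.696 by limma). Plvap averaged 9.01 ± 0.37 in tumor-bearing and 9.53 ± 0.23 in tumor-free endothelial cells (SD, n = 3 each), and its groups overlapped (-0.52, interval -1.01 to -0.04, adjusted p = 0.685 by limma). These 3 surface genes had the most negative differences of the 10 without passing the test. Of the endothelial markers outside the 10, Tie1 (-0.56), Kdr (-0.38), Tek (-0.24) and Erg (-0.16) were lower there too, and Flt1 stood at 0.06. Of the osteoblast markers, Alpl (0.80), Phex (1.06), Sp7 (0.65) and Dmp1 (0.49) were higher, and Col1a1 (-0.21) and Ibsp (-0.40) lower. None of these markers passed the threshold, and the part of other cells in the values was not tested.

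Emcn and Cdh5 separated the groups by margins that were small beside the shared error. Emcn averaged 10.51 ± 0.17 in tumor-bearing and 10.85 ± 0.02 in tumor-free endothelial cells (SD, n = 3 each). Its difference of -0.35 had an SE of 0.43 with all 12 arrays, because the error is shared with osteoblasts, and 0.13 with the 6 endothelial arrays alone, where it did not pass either (adjusted p = 0.313 by limma). Cdh5 differed by -0.06 ± 0.54 (SE) with all arrays and ± 0.11 with the endothelial arrays alone (adjusted p = 0.855 by limma), so at 11.49 ± 0.01 in tumor-bearing and 11.56 ± 0.03 in tumor-free endothelial cells (SD, n = 3 each) the adherens junction cadherin was nearly level. Adgrl4 (-0.01, interval -0.30 to 0.27) and Pecam1 (0.05, interval -0.58 to 0.68) also lay near 0, while Esam (0.19, interval -0.17 to 0.55), Cldn5 (-0.16, interval -0.70 to 0.38) and Egfl7 (-0.27, interval -0.60 to 0.06) had intervals that included 0. These intervals still allow differences of 1.5-fold or more for Cdh5, Emcn, Cldn5, Egfl7 and Pecam1. Both endothelial groups were gated on CD31, the product of Pecam1, and the part of the gate in its tumor difference was not tested.

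**Figure D2:**
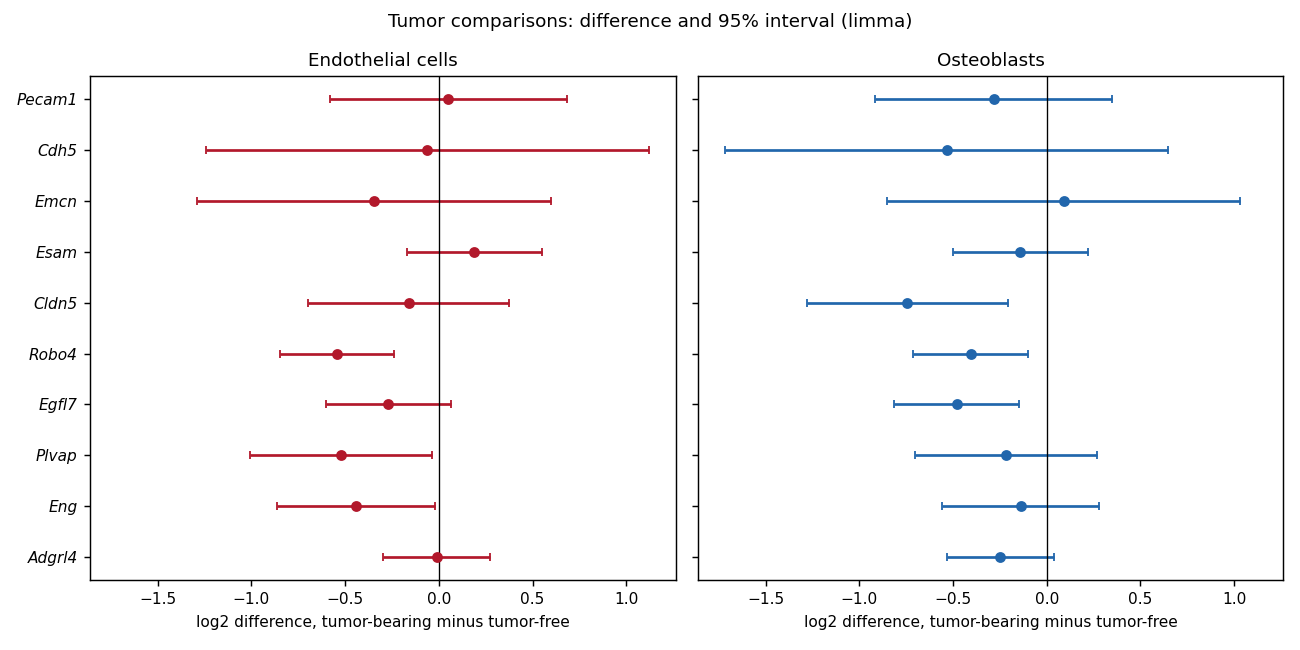
Log2 difference, tumor-bearing minus tumor-free, of the 10 genes in endothelial cells (left, red) and osteoblasts (right, blue), with 95% intervals from the limma fit over all 12 arrays. Most points lie left of 0 (8 of 10 in endothelial cells, 9 of 10 in osteoblasts), and none passes the adjusted threshold.

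In osteoblasts, where the genes are low, 0 of 10 passed the threshold by limma, with 4.59% of all genes tested called (4.01% higher and 0.571% lower in tumor-bearing mice, or 499 and 71 genes; 368 and 184 after quantile normalization). At an unadjusted p under 0.05 there were 3, Egfl7, Cldn5 and Robo4, each lower in osteoblasts of tumor-bearing mice, against 24.4% of all genes. Of the 10 differences 9 were negative, with a median of -0.27 against 0.00 over all genes tested. The groups did not overlap for Cldn5, Robo4, Egfl7 and Adgrl4, each lower in tumor-bearing mice, which 12.3% of all genes showed. Egfl7 averaged 6.21 ± 0.19 in tumor-bearing and 6.69 ± 0.09 in tumor-free osteoblasts (SD, n = 3 each; -0.48 ± 0.15 SE, adjusted p = 0.0913 by limma), and after quantile normalization it passed, at -0.65 with adjusted p = 0.0424 by limma. Cldn5 averaged 5.70 ± 0.37 in tumor-bearing and 6.44 ± 0.35 in tumor-free osteoblasts (SD, n = 3 each; -0.74 ± 0.24 SE, adjusted p = 0.102 by limma). Robo4 averaged 5.67 ± 0.11 in tumor-bearing and 6.07 ± 0.01 in tumor-free osteoblasts (SD, n = 3 each; -0.41 ± 0.14 SE, adjusted p = 0.114 by limma).

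Cdh5, Pecam1 and Emcn changed direction in osteoblasts when single arrays were left out. Tumor-free osteoblast replicate 2 held the highest value of each, 7.38 for Cdh5, 6.39 for Pecam1 and 5.55 for Emcn. Of Kdr, Tek, Tie1, Flt1 and Erg, only Kdr, the main VEGF receptor of endothelium, was highest there, at 6.52. On the remaining osteoblast arrays Kdr stood at 4.47 to 5.02 in tumor-bearing and 4.85 to 5.08 in tumor-free mice. Erg, Tie1 and Flt1 were highest on tumor-free replicate 3 (6.78, 6.25 and 5.41, against 6.04, 5.63 and 5.39 on replicate 2). Tek was highest on tumor-bearing replicate 2 (5.13, against 4.79 on tumor-free replicate 2). Tumor-free osteoblast replicate 2 had the highest hematopoietic marker mean, 7.43, and the highest macrophage marker mean, 8.88. Replicate 3 of tumor-free osteoblasts, with a macrophage mean of 8.67, had Cdh5 at 4.91 and Emcn at 4.30. Without replicate 2 the tumor difference of Cdh5 in osteoblasts was 0.17 in place of -0.53 and that of Pecam1 was 0.06 in place of -0.28. Tumor-bearing osteoblast replicate 3 held the lowest values of Cdh5, Pecam1 and Emcn, 4.59, 5.03 and 3.74, with hematopoietic and macrophage means of 4.56 and 5.00. Whether endothelial or blood cells among the sorted osteoblasts set these values was not tested.

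**Figure D3:**
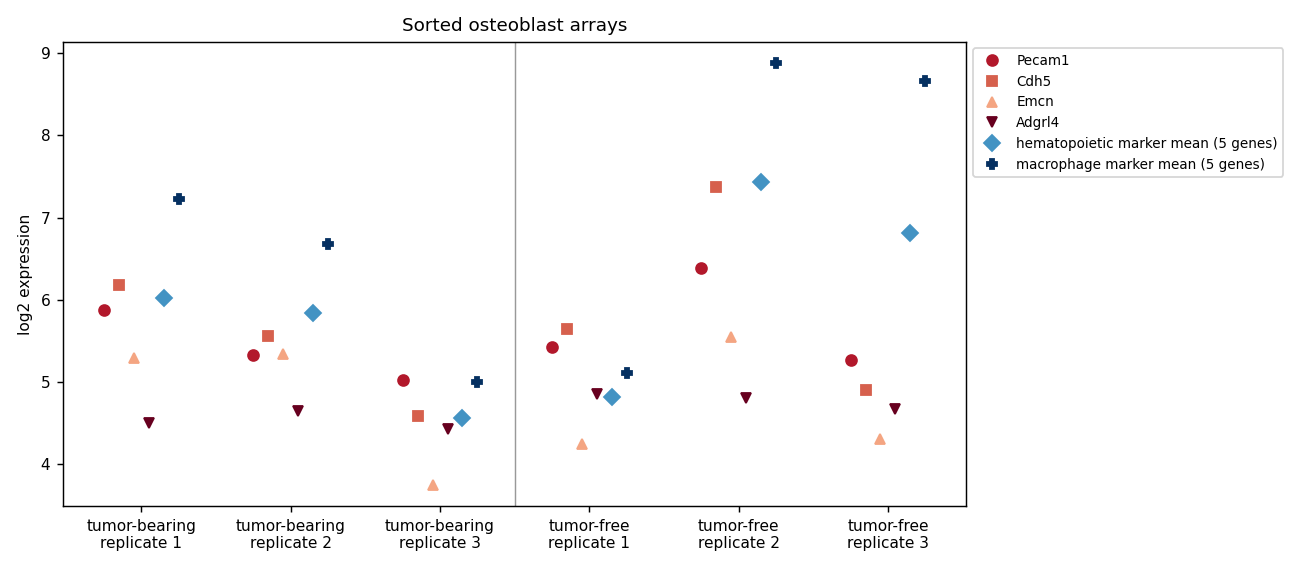
Log2 expression of Pecam1, Cdh5, Emcn and Adgrl4 on the 6 osteoblast arrays (tumor-bearing left, tumor-free right), beside the mean of 5 hematopoietic and 5 macrophage markers. Cdh5, Pecam1 and Emcn are highest on tumor-free replicate 2 and lowest on tumor-bearing replicate 3, while Adgrl4 stays between 4.43 and 4.85.

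The tumor difference in endothelial cells minus that in osteoblasts was tested as an interaction, and 0 of 10 genes passed by limma (26 of 12430 genes, 0.209%, did) or had an unadjusted p under 0.05, which 16% of all genes reached. The values ran from -0.44 for Emcn (interval -1.77 to 0.90) to 0.58 for Cldn5 (interval -0.18 to 1.34), so the data neither show a difference between the cell types nor exclude one of 2-fold for Emcn, Cldn5, Cdh5 or Pecam1. By group mean, 7 of 10 genes had the order tumor-free endothelial, tumor-bearing endothelial, tumor-free osteoblast, tumor-bearing osteoblast; Pecam1 and Esam had the endothelial groups the other way round and Emcn the osteoblast groups. Neighbours in these orders within a cell type did not differ past the threshold for any of the 10.

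Genes whose products work with the 10, and other endothelial surface genes, were taken from 6 lists of 53 genes in all. Of these, called partner genes here, 52 were measured and 50 tested. In the cell type comparison 33 were higher and 3 lower in tumor-bearing endothelium, and 35 were higher and 3 lower in tumor-free mice, with 6.79% and 12.7% of all genes called lower. Their median log2 differences were 1.47 and 1.69. Both counts and medians include the other endothelial surface genes, of which 11 of 11 were higher in each comparison, with medians of 3.22 and 3.18. Among the 50, Cavin2, F11r and Cd34 exceeded the array median on fewer than 3 osteoblast arrays. These genes reached the test only through their endothelial level. Slit2 and Robo2 were below the array median on every endothelial array and reached the test only through osteoblasts. The counts over the lists, and the folds and p-values of these genes, are therefore a description. The plot by gene list sets the partner genes beside the junction and surface genes, with which the other endothelial surface genes overlapped.

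**Figure D4:**
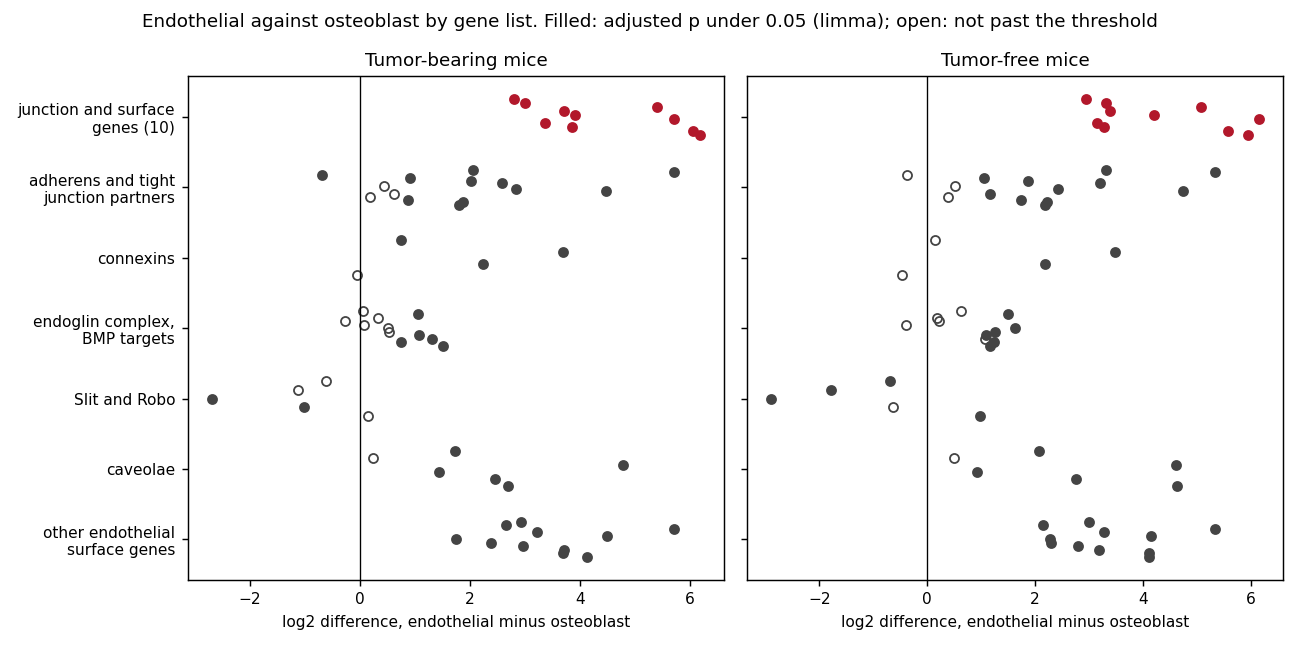
Log2 difference, endothelial minus osteoblast, for the 10 genes (red) and for 6 lists of partner genes (grey), in tumor-bearing mice (left) and tumor-free mice (right), with filled points past the limma threshold. The 10 genes span 2.80 to 6.18 and 2.94 to 6.15, while the Slit and Robo list lies mostly below 0.

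Of 14 adherens and tight junction partners tested, 10 were higher and 1 lower in tumor-bearing endothelium, and 11 were higher in tumor-free mice. Ptprb, the receptor phosphatase that acts on the Cdh5 cadherin, was 52.4-fold higher in tumor-bearing and 40.5-fold higher in tumor-free mice (adjusted p = 7.22e-09 and 1.5e-08 by limma). F11r, a junctional adhesion molecule, was 22.2-fold and 26.6-fold higher, and Jup, plakoglobin, which links cadherins to the cytoskeleton, 6.00-fold and 9.20-fold higher. Ocln and Marveld2, tight junction proteins best known from epithelium, were too dim to be tested. Of 4 connexins, the channel proteins of gap junctions, Gja5 was 12.9-fold and 11.2-fold higher and Gja4 4.70-fold and 4.52-fold higher in tumor-bearing and tumor-free mice. Gjc1 was higher in tumor-bearing mice (1.69-fold, adjusted p = 0.0459 by limma), a call that ended under 11 of 20 other settings, 7 of them fits without 1 array (tumor-bearing endothelial replicate 1, 2 or 3, tumor-free endothelial replicate 3, tumor-bearing osteoblast replicate 2 or 3, or tumor-free osteoblast replicate 2; adjusted p = 0.055 to 0.157 by limma).

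The partners of endoglin differed less than Eng itself. Of 11 genes, 5 were higher in tumor-bearing and 6 in tumor-free mice. Acvrl1, the ALK1 receptor that endoglin assists, was 2.83-fold higher in tumor-bearing and 2.25-fold higher in tumor-free mice (adjusted p = 0.000286 and 0.00148 by limma), and Tgfbr2, a TGF-beta receptor, 2.09-fold and 2.83-fold higher. Bmpr2, a receptor for bone morphogenetic proteins, was 1.67-fold and 2.37-fold higher, and its call in tumor-bearing mice ended in 5 of 20 settings, without tumor-bearing endothelial replicate 1, 2 or 3 or tumor-bearing osteoblast replicate 2 or 3 (adjusted p = 0.0517 to 0.0854 by limma). Smad5, which carries the BMP signal to the nucleus, was 3.10-fold higher in endothelial cells of tumor-free mice (adjusted p = 0.000211 by limma).

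Of 5 genes of the Slit and Robo list, 2 were lower in endothelial cells than in osteoblasts in tumor-bearing mice, and 3 were lower and 1 higher in tumor-free mice. Slit2, a ligand of roundabout receptors, was 6.45-fold lower in tumor-bearing endothelium than in osteoblasts and 7.39-fold lower in that of tumor-free mice (adjusted p = 0.00425 and 0.00243 by limma; a log2 difference of -3.55 in place of -2.89 without tumor-free osteoblast replicate 1). Slit3, another ligand, was 3.46-fold lower in tumor-free mice (adjusted p = 0.00855 by limma) and did not pass in tumor-bearing mice (a log2 difference of -1.13, adjusted p = 0.0916). The receptor Robo2 was 2.02-fold lower in tumor-bearing mice (adjusted p = 0.0276 by limma), a call that ended in 6 of 20 settings, 5 of them without tumor-bearing endothelial replicate 1, 2 or 3 or tumor-bearing osteoblast replicate 1 or 2 (adjusted p = 0.0549 to 0.11 by limma). Robo1 was 1.97-fold higher in tumor-free mice (adjusted p = 0.00515 by limma). Of 6 caveola genes 5 were higher in each comparison, with Cavin2, a coat protein of caveolae, 27.7-fold and 24.5-fold higher and Ehd2, a membrane ATPase at the caveolar neck, 3.33-fold and 4.18-fold higher in tumor-bearing and tumor-free mice. All 11 other endothelial surface genes were higher in both, among them the sialomucin Podxl (9.32-fold and 9.68-fold) and the orphan receptor Tie1 (7.61-fold and 7.98-fold).

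In the tumor comparisons 0 of 50 partner genes passed in endothelial cells, and 2 rose and 1 fell in osteoblasts of tumor-bearing mice, a share near the 4.59% of all genes called there. Cav1, the main coat protein of caveolae, stood at 7.77, 8.12 and 7.92 in tumor-bearing osteoblasts, against 6.14, 4.90 and 4.96 in tumor-free ones. It rose 6.09-fold (2.61 ± 0.31 SE, adjusted p = 0.00412 by limma), with adjusted p = 0.103 when the osteoblast arrays alone were fitted. Of the 6 pericyte and smooth muscle markers, Acta2, the smooth muscle actin, rose 6.75-fold in the same osteoblasts (adjusted p = 0.0118 by limma). Kcnj8, a pericyte channel, fell 2.58-fold (adjusted p = 0.0208 by limma). Cspg4, Pdgfrb, Rgs5 and Abcc9 did not pass, with log2 differences of 1.12, 0.66, 0.14 and -0.14. The part of pericytes and smooth muscle cells in the Cav1 value was not tested. The endothelial excess of Cav1 was 6.50-fold in tumor-bearing and 24.9-fold in tumor-free mice. Smad5 rose 1.78-fold (adjusted p = 0.041 by limma), and that call ended under 15 of 20 other settings (adjusted p = 0.0569 to 0.255 by limma), among them the fits without any 1 array other than tumor-free osteoblast replicate 1 or 2. Clec14a, an endothelial surface lectin, stood at 5.02, 4.83 and 4.47 in tumor-bearing osteoblasts, against 5.50, 6.38 and 5.81 in tumor-free ones. It fell 2.17-fold (adjusted p = 0.0348 by limma), and the call ended under 12 of 20 settings (adjusted p = 0.0501 to 0.194 by limma), among them the fits without any 1 array other than tumor-free endothelial replicate 1 or 2 or tumor-free osteoblast replicate 1.

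The genes whose pattern over the 12 arrays lay closest to the mean pattern of the 10, by the root mean square difference after removal of each gene's own mean, were Lrg1, Prex2, Aplnr, Gimap6, Sele, F11r, Gpr182, Rapgef5, Tfpi and Gpihbp1. Their distances ran from 0.18 for Lrg1 to 0.32 for Gpihbp1 log2 units, against a median of 0.62 for the 10 genes themselves and 2.21 over all genes tested. The likeness is mostly that between cell types, since the groups differ there by several units. Lrg1, a secreted leucine-rich glycoprotein, averaged 9.62 ± 0.23 in tumor-bearing and 9.95 ± 0.13 in tumor-free endothelial cells, and 5.43 ± 0.31 in tumor-bearing and 5.83 ± 0.27 in tumor-free osteoblasts (SD, n = 3 each). Among the 10, Eng lay nearest to their mean pattern (0.25), and Emcn, Cdh5 and Adgrl4, whose cell type differences are the largest, farthest from it (0.88, 0.88 and 0.87).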

How the data were processed

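RNA of the sorted cells was extracted, amplified by SPIA and hybridised as biotin-labelled cDNA, per the labels' protocols. The deposited table holds log2 expression of 34760 probe sets on 12 arrays, and the submitters' processing notes name affy, with background and scale handling not given in the sources used here. Each column matched 1 sample, and groups came from the titles. Replicates are labelled biological with no number of mice behind each, and the p-values cover only their spread, which may be partly technical.

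Gene names came from the platform annotation, which gives 21640 probe sets 1 symbol, 1321 several and leaves 11799 unlisted. Each of the 10 genes had 1 probe set, and for other genes with several the brightest over the 12 arrays was used. A probe set's level is not compared with that of another, and signal over background was not used. Genes above the array median on at least 3 arrays were tested (12430 of 19937, 62.3%). limma 3.58.1 in R 4.3.3 fitted 1 mean per group over all 12 arrays; tests are two-sided, with Benjamini-Hochberg adjustment over all genes tested and a threshold of 0.05. The steps were tested on simulated data.

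The 10 genes and the lists were chosen with earlier results of these data known. All 10 are named; of each partner list, up to 3 genes with the smallest p past the threshold per comparison, and the 10 genes of most similar pattern. Other genes, among them the markers, Mir126a, Ocln and Marveld2, were named after their values were seen. Alternatives were a block for the replicate number, quantile normalization, centering of each array on its median, all genes without the filter, averaged probe sets, a robust fit with an intensity trend, weights per group, a fit of the compared groups alone, and the omission of each array. The sources used here do not say whether same-numbered arrays share mice, and the main fit used no pairing. Of the listed genes, 1 partner and 6 markers are not analysed here.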

Additional observations from a re-analysis of the deposited data

How the results depend on the processing

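The 10 genes were higher in endothelial cells past the threshold under all 20 other settings, in tumor-bearing mice (highest adjusted p = 0.000244 by limma) and in tumor-free mice (highest adjusted p = 0.00383). In endothelial cells and in the comparison of differences 0 of 10 passed under any setting; in osteoblasts 1 passed after quantile normalization, Egfl7. Signs changed for some differences, none of them past the threshold. In endothelial cells, leaving out 1 array gave Pecam1 -0.00676 to 0.113 and Adgrl4 -0.0509 to 0.0534, and quantile normalization gave Adgrl4 0.0167. In osteoblasts, leaving out 1 array gave Emcn -0.184 to 0.614, Eng -0.363 to 0.0109, Cdh5 -1.07 to 0.165 and Pecam1 -0.514 to 0.0646, the last 2 positive only without tumor-free osteoblast replicate 2. In the comparison of differences it gave Cdh5 -0.226 to 1.01 and Pecam1 -0.0144 to 0.565.

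Counts over all genes moved more. Tumor-free, endothelial against osteoblast, 3850 genes became 6564 with no filter, 2529 with weights per group, 1911 with the compared groups alone and 2266 to 3921 without 1 array. The 3 calls in endothelial cells became 0 with the replicate block, quantile normalization, median centering, no filter or the intensity trend, 7 with the mean over probe sets, 38 with weights and 0 to 61 without 1 array. The 570 calls in osteoblasts became 349 with the replicate block, 955 with no filter, 130 with weights, 0 with the compared groups alone and 111 to 1573 without 1 array. The 26 calls in the comparison of differences became 0 with the replicate block, 14 after quantile normalization, 96 after median centering, 41 with the mean over probe sets and 0 to 545 without 1 array. The cause was not tested. With the block, which changed no call among the 10 genes, same-numbered arrays correlated at -0.26 to 0.11 after removal of group means. Values near the array median have no measure of background here.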
